A study of Homo sapiens with 18 samples.

Results

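The genes of mitosis and the G2/M transition described here are 40 human genes that act from the end of the G2 phase to the separation of the daughter cells. They were followed in SH-SY5Y cells exposed to sarin. Every probe set annotated to exactly 1 of the 40 gene symbols was used, which gave 66 of the 22283 probe sets of the array and 40 of the 11963 genes that have a probe set annotated to that gene alone. SH-SY5Y is an established human neuroblastoma line, a cloned subline that divides in culture, so it models a tumour cell of the sympathetic lineage and not a resting neuron. Sarin is an organophosphorus nerve agent that inhibits acetylcholinesterase. Each of the 6 groups holds 3 arrays: cells given sarin at 5 ppm and untreated control cells of the same time, at 3 h, at 24 h and at 48 h. No other agent, no vehicle and no genetic change is named for any group. The labels give 6 flasks for a group beside 3 arrays and do not tie flasks to arrays, so the p-values measure the spread between arrays, which may be technical.

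Entry into mitosis is driven by the kinase CDK1 bound to cyclins A and B, after which the Aurora and Polo kinases build the spindle and the spindle checkpoint holds the cell until every chromosome is attached. The anaphase-promoting complex then destroys the cyclins and securin, and the central spindle and its motors take part in the division of the cell. These genes are transcribed late in the cycle, in large part through CCAAT boxes and a CHR element (cell cycle genes homology region) near the start of transcription, which the DREAM complex and the B-MYB and FOXM1 complexes bind, so that in a bulk culture their level follows the share of dividing cells. In such a culture fewer cycling cells and less RNA per cell cannot be told apart.

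The promoters of 4 members are shown because their genes mark the patterns described later: CCNB2 followed the median of the list most closely over the arrays, CDK1 was lower in both the 24 h controls and the 48 h sarin cells, CDCA8 moved in both directions, and TOP2A gave different results with its 2 probe sets. The sequences are from RefSeq (GRCh38.p14), run from 250 bases before the start of transcription to 50 after it, and carry in capitals each CHR element (TTTGAA or TTCGAA, read on both strands) and each CCAAT box (CCAAT or ATTGG).
CCNB2, chr15:59104896-59105195, plus strand: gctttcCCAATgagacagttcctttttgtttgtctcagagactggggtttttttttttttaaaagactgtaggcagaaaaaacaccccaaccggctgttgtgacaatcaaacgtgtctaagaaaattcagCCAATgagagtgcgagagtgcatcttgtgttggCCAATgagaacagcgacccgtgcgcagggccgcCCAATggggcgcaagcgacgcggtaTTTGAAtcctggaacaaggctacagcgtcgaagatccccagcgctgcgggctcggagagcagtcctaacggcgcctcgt
CDK1, chr10:60778228-60778527, plus strand: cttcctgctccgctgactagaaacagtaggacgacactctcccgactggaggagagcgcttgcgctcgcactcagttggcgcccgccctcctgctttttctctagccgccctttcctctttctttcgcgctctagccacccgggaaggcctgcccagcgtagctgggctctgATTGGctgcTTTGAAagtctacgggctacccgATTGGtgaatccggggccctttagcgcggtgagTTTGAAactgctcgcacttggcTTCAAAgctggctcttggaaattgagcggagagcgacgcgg
CDCA8, chr1:37692266-37692565, plus strand: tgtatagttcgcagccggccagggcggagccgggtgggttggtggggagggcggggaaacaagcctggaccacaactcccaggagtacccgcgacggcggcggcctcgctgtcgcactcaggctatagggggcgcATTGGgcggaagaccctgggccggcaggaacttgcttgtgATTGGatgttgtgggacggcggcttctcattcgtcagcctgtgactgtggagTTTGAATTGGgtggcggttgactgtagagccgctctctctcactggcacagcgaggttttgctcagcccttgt
TOP2A, chr17:40417847-40418146, minus strand: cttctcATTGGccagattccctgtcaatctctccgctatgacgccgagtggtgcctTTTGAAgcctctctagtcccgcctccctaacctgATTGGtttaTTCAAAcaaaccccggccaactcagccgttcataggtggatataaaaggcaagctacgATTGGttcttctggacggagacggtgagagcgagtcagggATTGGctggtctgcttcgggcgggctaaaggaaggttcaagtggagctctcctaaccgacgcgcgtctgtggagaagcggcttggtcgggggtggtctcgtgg

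In CCNB2 there were 4 CCAAT boxes and a CHR element 29 bases before the start. This CDK1 window is the second of 2 overlapping RefSeq windows and held 3 CHR elements. In CDCA8 the CHR element and a CCAAT box share 1 base, as they also do in MKI67, and in PTTG1 and HMMR the CCAAT boxes on the opposite strands share 2 bases. Windows were used for 32 of the 40 members, and not for AURKA, TTK, BIRC5, TPX2, UBE2C, FOXM1, BUB3 and RACGAP1. A CHR element stood in the windows of 24 of the 32 genes (75.0%), against 19.5% of the 27305 genes with a window. A CCAAT box stood in 28 (87.5%), against 39.7%, and both stood in 22 (68.8%), against 7.85%. The TTCGAA form was found in BUB1 and NDC80. Such a match is a description of letters in these windows, not a binding site.

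All arrays were scaled by the authors to about the same trimmed mean, between 800.1 and 800.3. The 48 h sarin arrays differed from the remaining 15 as a set: the median signal was 534.5 to 551.6, against 290.2 to 413.9, and the background, the 90th percentile of 27 bacterial probe sets, was 411 to 443, against 97 to 183. The ratio of the 3′ to the 5′ probe set, which is raised when RNA is degraded or copied short, was 2.15 to 2.3 for GAPDH on those 3 arrays, against 0.696 to 1.17, and 3.68 to 4.67 for ACTB, against 0.79 to 1.64. They correlated with the others at 0.664 to 0.757, against 0.909 to 0.965 among the other 15, so every value at 48 h carries this difference. Of the 12 measured noradrenergic neuroblastoma markers, 11 were above background on all arrays, among them PHOX2A, GATA3, DBH and STMN2, and their summed signal was 55540 to 65350 on the 48 h sarin arrays and 113100 to 121000 on the 48 h control arrays. Markers of the substrate-adherent cell type that also occurs in neuroblastoma cultures were above background on all arrays for 9 of 14, with sums of 25580 to 27080 on the 48 h sarin arrays and 64140 to 84350 on the 48 h control arrays. A sum does not describe each marker. By the test described below, 6 of 10 substrate-adherent markers were lower with sarin at 48 h and 3 higher. Of 12 noradrenergic markers 7 were lower and 0 higher, beside 37.8% and 32.9% of all genes. No epithelial marker of 6 was above background on all arrays, and of 6 blood markers CD3E and HBB were, while LYZ was on none. The summed signals of these 2 lists were higher on the 48 h sarin arrays, as the background was: 3971 to 4560 on the 48 h sarin arrays against 1454 to 1560 on the 48 h control arrays for the blood markers, and 1739 to 2856 against 597 to 1066 for the epithelial ones.

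A gene was read from its probe set with the highest mean signal, and 39 of the 40 members were among the 7178 genes in the upper 60% by mean signal, the exception being KIF23. Changes are given as differences of log2(signal + 16) with their standard error (SE), from limma with 3 arrays in each group, and a gene was called when its p-value, adjusted over all 7178 genes, was under 0.05. Probe sets whose name ends in _x_at can also bind transcripts of other genes, and those used for BUB3, FOXM1, CENPA and PTTG1 are of this kind. The heat map of all members shows the levels on every array.

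**Figure D1:**
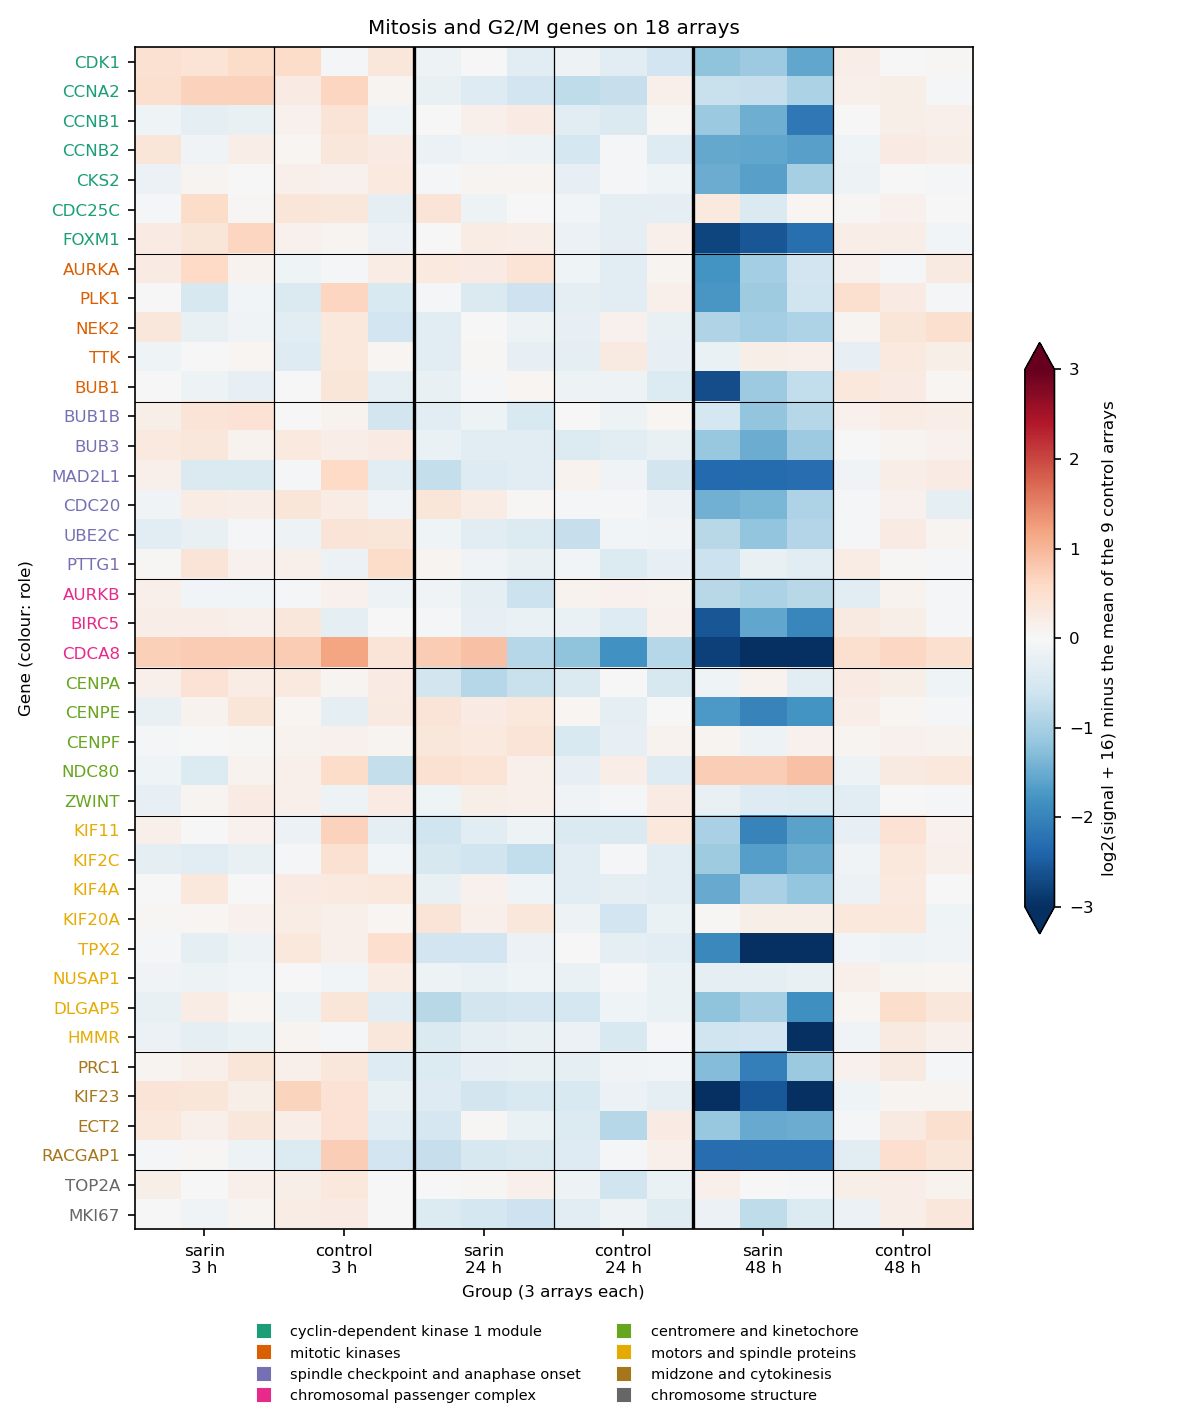
Signal of the 40 genes (rows, in the order of their roles) on each of the 18 arrays (columns, sarin before control at 3 h, 24 h and 48 h), as the log2 difference from the mean of the 9 control arrays. The 3 sarin columns at 48 h are low for most genes, with a median over the members of -1.11 to -0.94, and the other 15 columns have medians of -0.24 to 0.29.

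At 3 h none of the 39 members was called between sarin and control cells, and none of the 7178 genes was (0%). The changes lay between -0.46 and 0.47, with a median of -0.03 beside -0.01 over all genes. Unadjusted p-values were under 0.05 for 4 members, against 10.4% of all genes. The 95% intervals of 37 members lay within 1 log2 unit of 0, which bounds what 3 arrays a group could have missed.

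The 3 members with the smallest p at 3 h were BUB1B, FOXM1 and KIF2C. BUB1B encodes BubR1, which holds back the anaphase-promoting complex while chromosomes are unattached. Its signal was 3244, 3751 and 3868 in sarin cells and 2864, 3120.2 and 1961 in control cells (log2 change 0.47 ± 0.17, adjusted p = 0.356). FOXM1, a transcription factor that activates G2/M genes, had 2605, 2794 and 3416 in sarin cells and 2386, 2297 and 1925 in control cells (log2 change 0.41 ± 0.17, adjusted p = 0.396). In both genes the 3 sarin arrays were above the 3 control arrays, yet neither difference passed the adjusted threshold. KIF2C, a kinesin that takes microtubules apart at centromeres, had 2622, 2490.4 and 2737 in sarin cells and 3112, 4349 and 3020.2 in control cells (log2 change -0.40 ± 0.17, adjusted p = 0.419). Here the sarin arrays were the lower ones without overlap. Groups did not overlap for 2 members in the higher direction and 5 in the lower, against 7.13% and 6.95% of all genes.

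At 24 h 3 of the 39 members were higher in sarin cells and none was lower, beside 4.11% and 4.56% of all genes. The 3 were CDCA8, KIF20A and CENPF, which act at the chromosomal passenger complex, at the central spindle and at the kinetochore. The other 36 members lay between -0.45 and 0.48, and the median was 0.04 beside -0.07 over all genes. For all 3 genes the mean signal of the 24 h controls was below that of the 3 h and of the 48 h controls.

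CDCA8 encodes borealin, which places the chromosomal passenger complex on centromeres. It had 1635, 1756 and 518 in sarin cells and 403, 259 and 514 in control cells, a 2.94-fold difference (log2 change 1.56 ± 0.34, adjusted p = 0.00958). Sarin arrays 1 and 2 were far above all controls, and sarin array 3 stood just above the highest control array. The same gene had 1616, 2165 and 1254 in the 3 h controls and 1323, 1466 and 1323 in the 48 h controls, so at 24 h its controls were low and 2 of its sarin arrays were near the controls of the other times.

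KIF20A encodes a kinesin that carries the passenger complex to the central spindle. It had 2737, 2325 and 2674 in sarin cells and 1893, 1403 and 1821 in control cells, a 1.52-fold difference without overlap (log2 change 0.60 ± 0.15, adjusted p = 0.0173). CENPF, a kinetochore protein that builds up through G2, had 5371, 5178 and 5497 in sarin cells and 3069.5, 3559 and 4519.9 in control cells (log2 change 0.54 ± 0.13, adjusted p = 0.0161). Its 3 sarin arrays were above all 3 control arrays, of which the third was close. The call of CDCA8 was lost without sarin array 1 (adjusted p = 0.0639), sarin array 2 (0.0761) or control array 2 (0.0679). That of KIF20A was lost without sarin array 1, sarin array 3 or control array 2, with adjusted p up to 0.109, and that of CENPF when any array but control array 3 was left out, with adjusted p up to 0.0703. With quantile normalization 1 member was called in place of 3, and with the arrays centred on their median 9 were. Centring also gave 1146 higher and 112 lower genes over the whole array, where 295 and 327 were called without it, and put the median of all genes at 0.23.

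Set against the 3 h and 48 h controls together, no member was higher in 24 h sarin cells and 6 were lower, beside 6.42% and 6.03% of all genes: BUB3 (-0.44), CCNA2 (-0.60), CENPA (-0.84), DLGAP5 (-0.77), KIF2C (-0.72) and MKI67 (-0.67). The median of the 39 members was then -0.29, beside 0.01 over all genes. CDCA8 had the opposite sign, at -0.38 (adjusted p = 0.462), and KIF20A and CENPF were at 0.14 and 0.24.

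Of the genes fixed for description in every comparison, 8 in all, none was called at 24 h. AURKA, the kinase that matures spindle poles, had 2427, 2347 and 2608 in sarin cells and 1804, 1568 and 2075 in control cells (log2 change 0.44 ± 0.22, adjusted p = 0.21). CDC20, the activator of the anaphase-promoting complex, had 2844, 2553 and 2246 in sarin cells and 2097, 2107 and 1943 in control cells (log2 change 0.31 ± 0.17, adjusted p = 0.267). For both, the sarin arrays were above the control arrays without overlap, as they were for 8 of the 39 members, against 17.2% of all genes. For 6 members they were below the control arrays without overlap, against 23.2%.

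CCNB1, the cyclin whose destruction ends mitosis, had 3873, 4322 and 4610.1 in sarin cells and 3124, 2885 and 4021 in control cells (log2 change 0.36 ± 0.20, adjusted p = 0.257). CDK1 had 3548, 3929.9 and 3139 in sarin cells and 3594, 3139 and 2676 in control cells (log2 change 0.18 ± 0.16, adjusted p = 0.523). In both genes the groups overlapped. TOP2A, the topoisomerase that untangles sister chromatids, had 3552, 3553 and 3857 in sarin cells and 3158, 2286 and 3049.7 in control cells (log2 change 0.38 ± 0.13, adjusted p = 0.0799), with the sarin arrays the higher ones. MKI67, the gene of the Ki-67 protein that coats mitotic chromosomes, had 1307, 1204 and 1127 in sarin cells and 1393, 1579 and 1349.6 in control cells (log2 change -0.24 ± 0.17, adjusted p = 0.366), with the sarin arrays the lower ones. PLK1 and FOXM1 changed by -0.22 ± 0.29 and 0.24 ± 0.17 with overlapping groups. On these arrays the 3′ to 5′ ratio of GAPDH was 1.05 to 1.17 in sarin cells and 0.811 to 0.941 in control cells, and the summed substrate-adherent markers were 40930 to 41610 in sarin cells and 61640 to 63710 in control cells. With the GAPDH ratio as a covariate and without the 48 h sarin arrays, 4 members were higher and 0 lower, with a median of 0.21. That fit called 6.88% of all genes higher and 7.17% lower. Leaving out those arrays alone gave 3 higher and 0 lower, with a median of 0.04. The ratio did not overlap between sarin and control cells at 24 h, so this fit does not separate its part from that of sarin. The part of the marker sums was not tested.

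At 48 h 31 of the 39 members were lower in sarin cells and 1 was higher, beside 37.8% and 32.9% of all genes. With quantile normalization 28 of the 31 stayed lower, while MKI67 (0.39), NUSAP1 (0.38) and PTTG1 (0.40) turned to the higher side, 2 of them called. That setting gave 29 members lower and 5 higher, beside 41.3% and 30.2% of all genes. Median centring gave 38 lower and 0 higher, beside 53.2% and 17.8%. Spike-in scaling gave 39 and 0, beside 84.5% and 0.223%. Without such scaling the median change was -1.31, beside -0.08 over all genes. Of all genes 2365 were higher and 2710 lower, which became 1279 and 3820 with the arrays centred on their median and 16 and 6065 with spike-in scaling. For 26 members the signal was called lower by at least 2-fold in the fit, against 1785 of all 7178 genes. For 30 members the sarin arrays lay below the control arrays without overlap, against 36.6% of all genes. On the 3 sarin arrays BUB1, HMMR, KIF11 and PLK1 were above background on 2, ECT2 and TPX2 on 1, and CDCA8, CENPE and FOXM1 on 0, so the sizes of these differences are less certain. At least 1 gene of every role was lower: 6 of 7 genes of the CDK1 module, 4 of 5 mitotic kinases, 6 of 6 checkpoint and anaphase genes, 3 of 3 passenger complex genes, 7 of 8 motor and spindle genes and 3 of 3 midzone genes, with 1 of 2 genes of chromosome structure. Among the 5 centromere and kinetochore genes 1 was lower and 1 higher. The plot of the change at each time shows this.

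**Figure D2:**
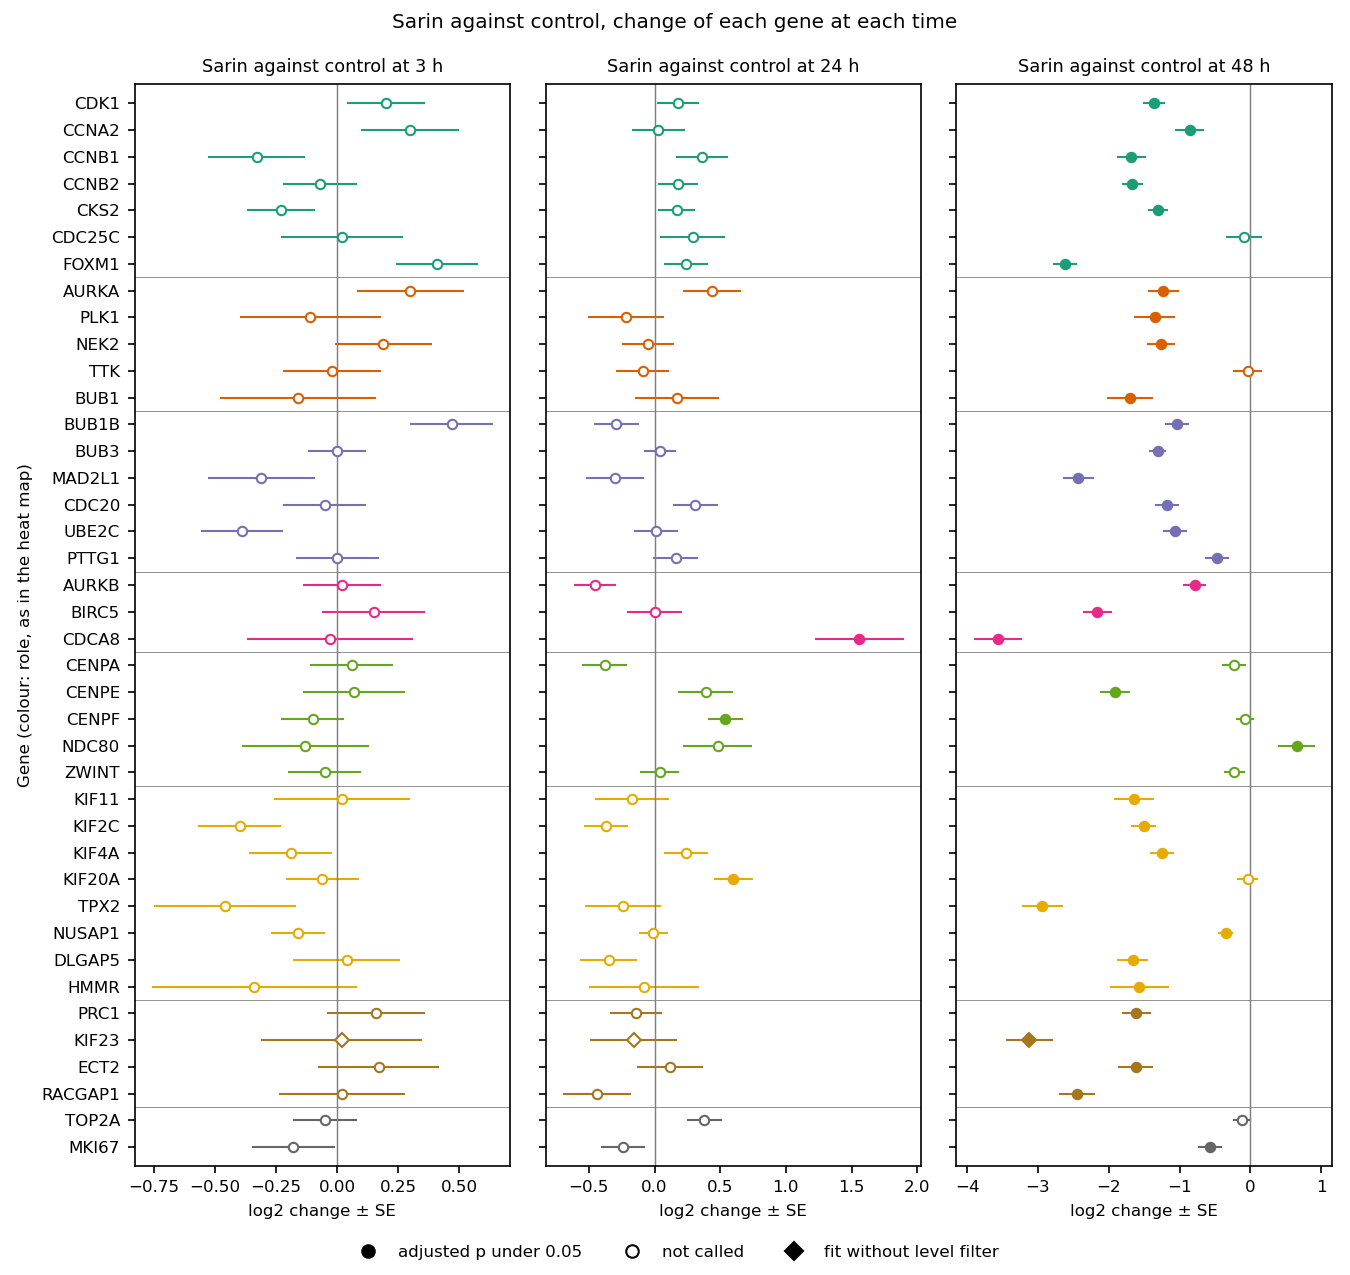
log2 change of sarin against control with its SE (horizontal axis, 3 arrays a group) for the 40 genes (vertical axis, coloured by role) at 3 h, 24 h and 48 h. Filled points passed the adjusted threshold: none at 3 h, 3 higher at 24 h, and at 48 h 31 lower and 1 higher among the 39 tested, with KIF23 drawn from the fit without the level filter.

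In the CDK1 module, cyclins and kinase were lower together at 48 h. CDK1 had 1707, 1866 and 1344 in sarin cells and 4541, 4003 and 4049.6 in control cells, 2.57-fold lower (log2 change -1.36 ± 0.16, adjusted p = 6.2e-07). CCNB1 had 1801, 1398 and 877 in sarin cells and 3916, 4420.4 and 4325 in control cells, 3.21-fold lower (log2 change -1.68 ± 0.20, adjusted p = 5.2e-07). In both genes every sarin array was far below the lowest control array. CCNB2, a B-type cyclin found at the Golgi, had 1352, 1324 and 1265 in sarin cells and 3585, 4644 and 4495 in control cells (log2 change -1.67 ± 0.15, adjusted p = 1.14e-08). CCNA2, the cyclin of S and G2 phases, had 1708, 1669 and 1409 in sarin cells and 3008, 3093 and 2631 in control cells (log2 change -0.86 ± 0.20, adjusted p = 0.000768), a smaller difference without overlap. CKS2, a small subunit that docks CDK1 to its substrates, changed by -1.31 ± 0.14.

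FOXM1 had 312, 357 and 441 in sarin cells and 2496, 2491 and 2045 in control cells (log2 change -2.62 ± 0.17, adjusted p = 1.5e-10). Its sarin signals were above background on 0 of 3 arrays, so the difference is given as at least 5.36-fold lower. CDC25C, the phosphatase that activates CDK1 at mitotic entry, was the module's exception, with 695, 412 and 591 in sarin cells and 578, 616 and 572 in control cells (log2 change -0.09 ± 0.25, adjusted p = 0.772) and overlapping groups.

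Among the mitotic kinases AURKA had 559, 966 and 1309 in sarin cells and 2132, 1888 and 2362 in control cells, 2.35-fold lower (log2 change -1.23 ± 0.22, adjusted p = 6.93e-05). PLK1, the Polo kinase of centrosomes and kinetochores, had 402, 654 and 914 in sarin cells and 1927, 1637 and 1339.8 in control cells (log2 change -1.35 ± 0.29, adjusted p = 0.000459). The sarin arrays of both genes spread over more than 2-fold and still lay below every control array, and for PLK1 2 of the 3 were above background. NEK2, which parts the centrosomes, and BUB1, a checkpoint kinase at kinetochores, changed by -1.26 ± 0.20 and -1.70 ± 0.32. TTK, the checkpoint kinase MPS1, had 1394, 1807 and 1798 in sarin cells and 1364, 1988 and 1835 in control cells (log2 change -0.04 ± 0.20, adjusted p = 0.852), with 95% interval -0.46 to 0.37.

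All 6 genes of the spindle checkpoint and anaphase onset were lower. MAD2L1, which encodes the MAD2 protein that sequesters CDC20, had 541, 556 and 561 in sarin cells and 2614, 3216 and 3344 in control cells, 5.38-fold lower (log2 change -2.43 ± 0.22, adjusted p = 1.48e-08). Its sarin signals were only a little above the background of 411 to 443, so this size is less certain. BUB3, a checkpoint adaptor, had 2622, 2037 and 2682 in sarin cells and 5752, 6104 and 6311 in control cells, 2.48-fold lower (log2 change -1.31 ± 0.12, adjusted p = 2.5e-08). CDC20 had 792, 834 and 1150.3 in sarin cells and 2145, 2387 and 1781 in control cells, 2.27-fold lower (log2 change -1.18 ± 0.17, adjusted p = 6.23e-06). In all 3 genes the highest sarin array lay well below the lowest control array. BUB1B and UBE2C, the ubiquitin-conjugating enzyme of the anaphase-promoting complex, changed by -1.04 ± 0.17 and -1.06 ± 0.17. The smallest fall of this role was that of PTTG1, securin, at -0.47 ± 0.17 (adjusted p = 0.021), which turned to 0.40 with quantile normalization.

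All 3 genes of the chromosomal passenger complex were lower. CDCA8 had 123, 97.8 and 85.2 in sarin cells and 1323, 1466 and 1323 in control cells, at least 3.16-fold lower since 0 of 3 sarin arrays were above background (log2 change -3.57 ± 0.34, adjusted p = 3.61e-08). BIRC5, survivin, had 489, 1001 and 765 in sarin cells and 3599, 3379 and 2899.7 in control cells, 4.47-fold lower (log2 change -2.16 ± 0.21, adjusted p = 2.93e-08). Neither gene's groups came near each other on these probe sets, but with the mean of its 3 probe sets BIRC5 was at -0.56 (adjusted p = 0.000357). AURKB, the kinase of the complex, had 843, 772 and 844 in sarin cells and 1222, 1622 and 1476 in control cells, 1.73-fold lower (log2 change -0.79 ± 0.16, adjusted p = 0.000224).

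The centromere and kinetochore genes did not move as one. CENPE, the kinesin that moves chromosomes to the spindle equator, had 203, 166 and 194 in sarin cells and 818, 740 and 681 in control cells, at least 1.74-fold lower (log2 change -1.91 ± 0.21, adjusted p = 2.19e-07). NDC80, part of the complex that grips microtubules, had 1124, 1118 and 1239 in sarin cells and 599, 799.7 and 829 in control cells, 1.56-fold higher (log2 change 0.65 ± 0.26, adjusted p = 0.0353), and was at -1.37 with spike-in scaling (arrays set to equal hybridisation controls) and no longer called with quantile normalization (0.41) or median centring (0.07). Its call was also lost without any 1 of the 3 sarin arrays and without control array 1. CENPF had 4440.3, 3783 and 4649.8 in sarin cells and 4444, 4588 and 4551 in control cells (log2 change -0.08 ± 0.13, adjusted p = 0.584). CENPA, the histone H3 variant of centromeres, and ZWINT, which anchors checkpoint proteins, were at -0.23 ± 0.17 (adjusted p = 0.222) and -0.23 ± 0.15 (adjusted p = 0.193), and neither was called.

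Among the motors and spindle proteins TPX2, which activates AURKA on the spindle, had 988, 288 and 311 in sarin cells and 3621, 3473 and 3557 in control cells (log2 change -2.94 ± 0.29, adjusted p = 4.4e-08). Only sarin array 1, the highest, was above background, so the size of this difference is not measured on the other 2 and no fold is given. HMMR, a spindle and hyaluronan-binding protein, had 1466, 1491 and 233 in sarin cells and 2085, 2717 and 2494 in control cells (log2 change -1.57 ± 0.42, adjusted p = 0.00264), and sarin array 3 was far below the other 2. KIF4A, which compacts chromosomes and sets the length of the central spindle, had 457, 668 and 582 in sarin cells and 1179, 1623 and 1310 in control cells (log2 change -1.25 ± 0.17, adjusted p = 3.46e-06). KIF11, the motor that pushes spindle poles apart, KIF2C and DLGAP5, a spindle assembly factor, were lower too, at -1.64 ± 0.28, -1.51 ± 0.17 and -1.66 ± 0.22. NUSAP1, which bundles spindle microtubules, fell by 0.35 on the log2 scale (adjusted p = 0.00852), and was at 0.38 with quantile normalization. KIF20A had 2134, 2378 and 2378 in sarin cells and 2615, 2626 and 1927 in control cells (log2 change -0.04 ± 0.15, adjusted p = 0.8), with overlapping groups and a 95% interval of -0.35 to 0.26.

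The midzone and cytokinesis genes were lower in each of the 3 tested. RACGAP1, a subunit of centralspindlin, had 499, 509 and 507 in sarin cells and 1967, 3558 and 3219.9 in control cells, 5.45-fold lower (log2 change -2.45 ± 0.26, adjusted p = 1.31e-07). Here too the sarin signals were only a little above the background of 411 to 443, so this size is less certain. PRC1, which bundles the midzone microtubules, and ECT2, which activates RhoA at the cleavage furrow, changed by -1.61 ± 0.20 and -1.62 ± 0.25. KIF23, the motor subunit of centralspindlin, was under the level filter. In the fit without the filter it had 26.3, 52.0 and 17.4 in sarin cells and 345, 405 and 404 in control cells (log2 change -3.12 ± 0.33, adjusted p = 2.29e-07), and no fold is given because the sarin signals were not above background on any array.

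Of the 2 genes of chromosome structure, MKI67 had 1543, 1031 and 1313 in sarin cells and 1539, 2019.9 and 2224 in control cells (log2 change -0.57 ± 0.17, adjusted p = 0.00493). Sarin array 1 was level with the lowest control array, so the groups overlapped, and with quantile normalization the gene was at 0.39. TOP2A had 3889, 3498 and 3423 in sarin cells and 3922, 4019 and 3784 in control cells (log2 change -0.12 ± 0.13, adjusted p = 0.437), which was not called. In all, 7 members were not called at 48 h, between -0.23 and -0.04. The 3′ to 5′ ratios, the background and the marker sums of the 48 h sarin arrays, given above, move with every value at this time, and their part in it was not tested.

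**Figure D3:**
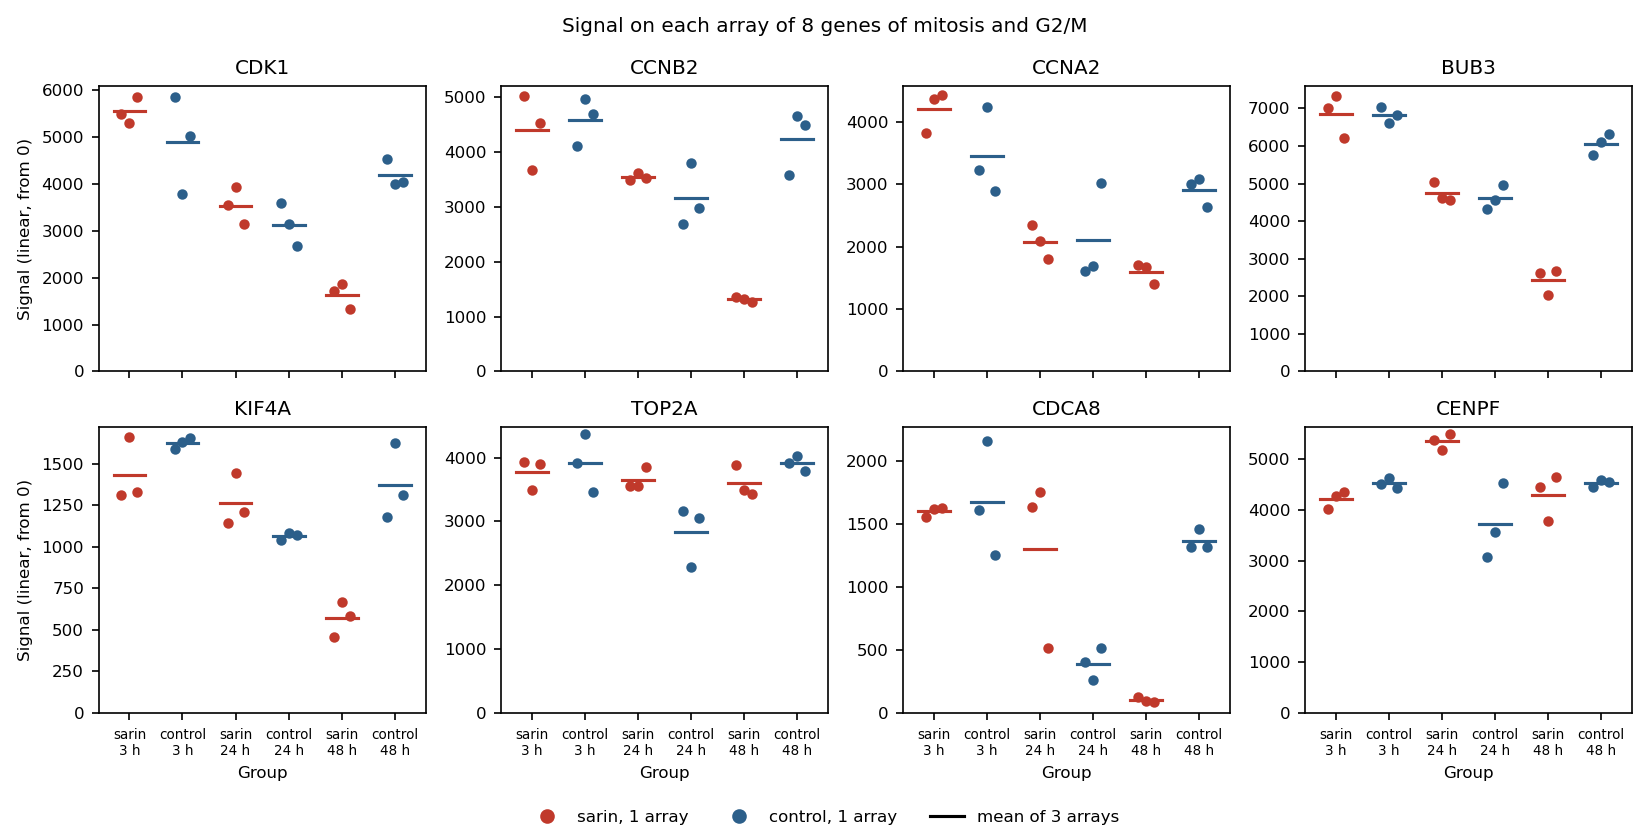
Signal (linear, vertical axes from 0) of 8 genes on each array (points; lines are the means of 3 arrays), sarin left of control at 3 h, 24 h and 48 h. CDK1, CCNB2, CCNA2, BUB3 and KIF4A are low in the 24 h controls and again in the 48 h sarin cells, CDCA8 is near 100 in the 48 h sarin cells, and TOP2A and CENPF are not called at 48 h.

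Several members have more than 1 probe set, and these did not always give the same result. At 48 h 42 of the 66 probe sets were lower in sarin cells and 3 were higher, beside 21.5% and 41.7% of 22215 probe sets tested without a level filter. Of the 14 genes with several probe sets, 7 had all of theirs on the same side of 0 and 9 had a range over 1 log2 unit. BIRC5 and BUB1 had probe sets called in opposite directions.

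For BIRC5 the used probe set 202095_s_at changed by -2.16, whereas 202094_at had 1797, 1935 and 1873 in sarin cells and 1153, 1422 and 1356 in control cells, a change of 0.51 ± 0.16 (adjusted p = 0.0105), and 210334_x_at changed by -0.02. All 3 were above background on the 3 sarin arrays. For BUB1 the used probe set 209642_at had 184, 584 and 751 in sarin cells and 1563, 1498 and 1296 in control cells, and was called lower. Its probe set 215508_at had 325, 498 and 275 in sarin cells and 178, 23.3 and 15.4 in control cells and was called higher, with 1 of the 3 arrays of each group above background. For TOP2A the second probe set 201292_at had 1199, 855 and 1558 in sarin cells and 4041, 5009 and 5432 in control cells, a called change of -2.02, while the used 201291_s_at was not called. AURKA, KIF2C, MKI67 and NUSAP1 likewise had 1 called probe set, lower in sarin cells, beside others between 0.03 and 0.83 that were not called. For NUSAP1 the other was at 0.08. CDK1, whose 3 probe sets were all lower (-1.73 to -1.36), BUB3 with 4 (-2.59 to -0.64), CCNA2, NEK2 and HMMR with 2 each had all of theirs called lower. At 24 h 4 probe sets were higher, 2 of them of CENPF, and none was lower, beside 1.63% and 1.75% of all probe sets.

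**Figure D4:**
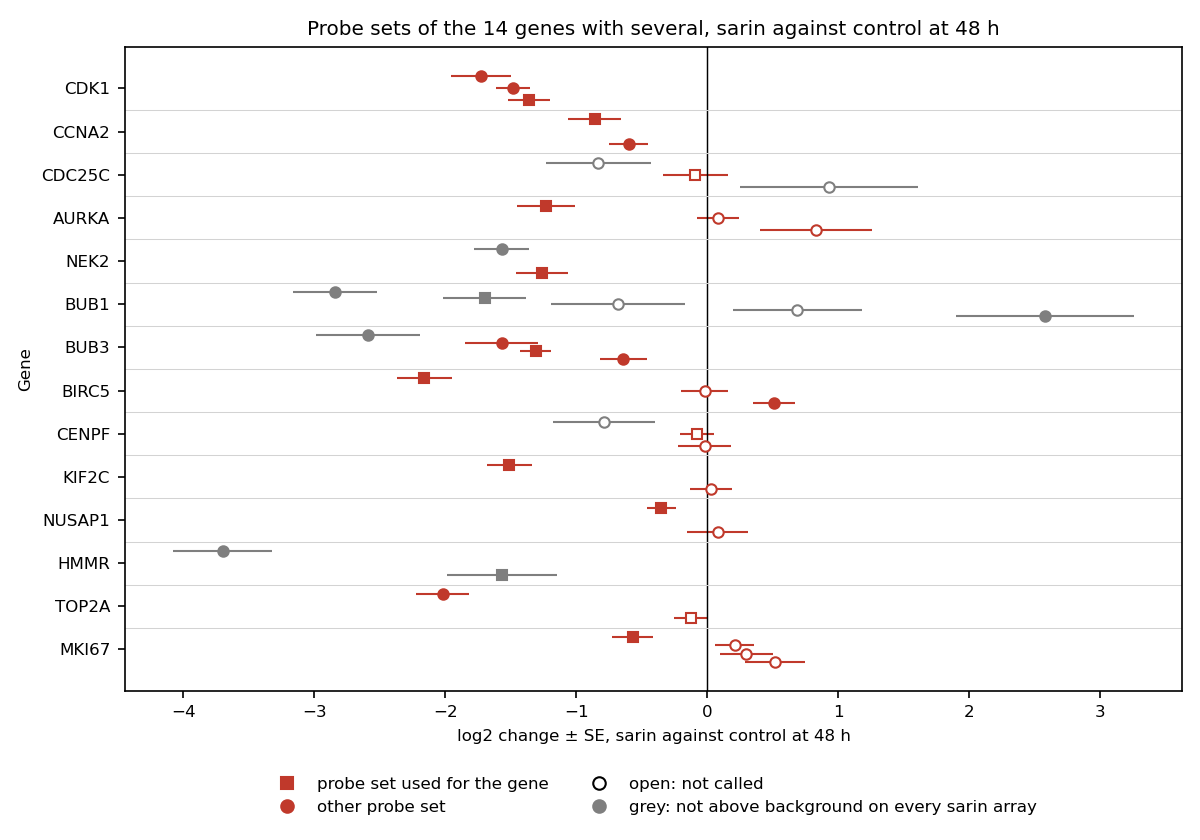
log2 change of sarin against control at 48 h (horizontal axis) of every probe set of the 14 genes with several (vertical axis). The probe sets of CDK1 lie together between -1.73 and -1.36, and those of BUB1 spread between -2.84 and 2.58.

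At 48 h the change of a gene depended on its signal, since brighter genes were lower in sarin cells over the whole array. The tested genes were cut into 5 bins of equal size by mean signal, and from the lowest to the highest bin the medians over all genes were 0.90, 0.39, 0.09, -0.36 and -0.97. The members stand in the upper 4 bins, with 4, 4, 13 and 18 genes, and their medians in the upper 3 were -1.49, -1.26 and -1.19. Lower members numbered 2, 4, 11 and 14 in the 4 bins, beside 24.4%, 31.1%, 46.8% and 73.6% of all genes of the same bin. In the highest bin, which holds CDK1, CCNB2, BUB3, PTTG1 and TPX2 among others, the members' share is thus close to that of all genes there.

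**Figure D5:**
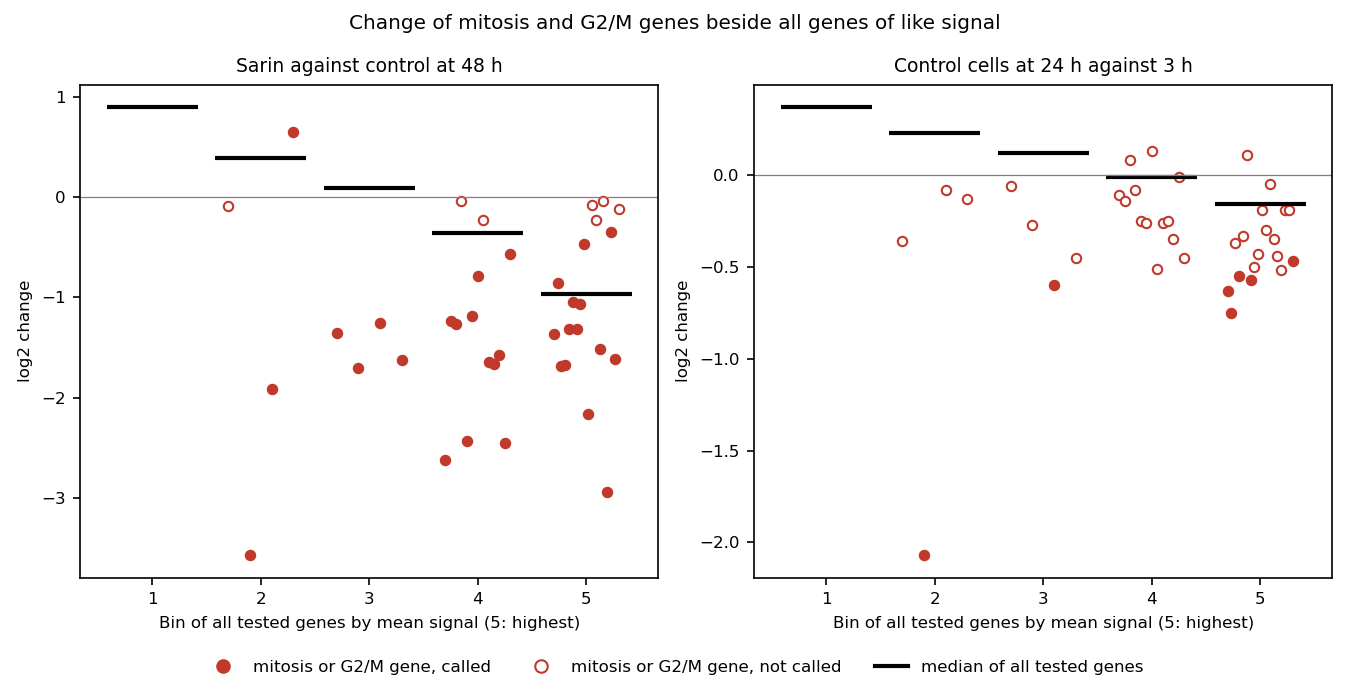
log2 change (vertical axis) of the members (points, filled where called) by bin of mean signal (horizontal axis, 5 the highest), with the median of all tested genes as a bar, for sarin against control at 48 h and for control cells at 24 h against 3 h. At 48 h the bar falls from 0.90 in the lowest bin to -0.97 in the highest, and CDCA8 is the lowest point in both panels, at -3.57 and -2.07.

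In untreated cells 7 of the 39 members were lower at 24 h than at 3 h (17.9%) and none was higher, beside 2.12% and 3.57% of all genes. They were CDCA8, CCNA2, CDK1, KIF4A, BUB3, CCNB2 and TOP2A, and 36 of 39 members had a negative change. The median was -0.30, beside 0.09 over all genes. For 11 members the 24 h arrays lay below the 3 h arrays without overlap, against 8.9% of all genes. With quantile normalization CDCA8 alone stayed called, with the arrays centred on their median 20 members were lower, and with scaling to the spike-ins 35 were. Over all genes 256 were higher and 152 lower, which became 93 and 1154 with centring and 10 and 2757 with spike-in scaling.

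CDCA8 was 4.2-fold lower, with 403, 259 and 514 at 24 h and 1616, 2165 and 1254 at 3 h (log2 change -2.07 ± 0.34, adjusted p = 0.00193). Its call held whichever array was left out. CCNA2 had 1608, 1687 and 3031 at 24 h and 3238, 4242 and 2896 at 3 h (log2 change -0.75 ± 0.20, adjusted p = 0.0326), with the third 24 h array inside the 3 h range. CDK1 had 3594, 3139 and 2676 at 24 h and 5865, 3798 and 5021 at 3 h (log2 change -0.63 ± 0.16, adjusted p = 0.03), without overlap.

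BUB3 had 4318, 4554 and 4952 at 24 h and 7042, 6618 and 6814 at 3 h (log2 change -0.57 ± 0.12, adjusted p = 0.0126). Cyclin CCNB2 had 2694, 3792 and 2977 at 24 h and 4113, 4965 and 4680.3 at 3 h (log2 change -0.55 ± 0.15, adjusted p = 0.0361). KIF4A had 1040.2, 1082 and 1071 at 24 h and 1586, 1628 and 1652 at 3 h (log2 change -0.60 ± 0.17, adjusted p = 0.0454). In these 3 genes, as in TOP2A (log2 change -0.47 ± 0.13, adjusted p = 0.0421), all 24 h arrays were below all 3 h arrays. The second probe set of TOP2A, 201292_at, was at 0.17 with overlapping groups. In the fit of all probe sets neither probe set of TOP2A was called. With 1 array left out, 4 members were called without any 1 of the 3 h controls and 3 without any 1 of the 24 h controls. KIF4A lost its call in 6 of 6 such fits (adjusted p 0.0675 to 0.116), CCNA2, CDK1 and CCNB2 in 4 of 6 each, and BUB3 only without control array 1 at 24 h (0.0513). With the mean of a gene's probe sets CDK1 was at -0.40 and no longer called (adjusted p = 0.059), and CCNA2 was at -0.48.

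Of the fixed genes that were not called in this comparison, MKI67 was at -0.45 ± 0.17 (adjusted p = 0.111) and CCNB1 at -0.37 ± 0.20 (adjusted p = 0.272). AURKA, PLK1, CDC20 and FOXM1 lay between -0.26 and -0.06. In the highest signal bin 5 of 18 members were lower, beside 6.62% of all genes of that bin, whose median was -0.16. The 3′ to 5′ ratio of ACTB was 1.46 to 1.5 on the 24 h control arrays and 0.79 to 1.14 on the 3 h control arrays, and the median signal was 397 to 413.9 at 24 h and 310.2 to 339.2 at 3 h. The part of these in the result was not tested. Of the 7 genes 6 were also lower with sarin at 48 h on the probe sets used. The exception was TOP2A, whose second probe set was called lower there (-2.02).

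Between 48 h and 3 h no member was called in untreated cells, beside 0.279% higher and 0.209% lower over all genes. The changes lay between -0.43 and 0.51 with a median of 0.00, and 1 member had an unadjusted p under 0.05, against 12.6% of all genes. That was NEK2, with 2379, 2925 and 3172 at 48 h and 1816, 2806 and 1503 at 3 h (log2 change 0.51 ± 0.20, adjusted p = 0.286), where the groups overlapped. Without control array 2 at 3 h, 1 member was called, in the higher direction. BUB1B and CKS2 followed by p, at 0.33 ± 0.17 (adjusted p = 0.451) and -0.26 ± 0.14 (adjusted p = 0.496).

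Between 48 h and 24 h 1 member was higher in untreated cells, beside 0.167% of all genes, and none was lower, beside 0.265%. This was CDCA8, with 1323, 1466 and 1323 at 48 h and 403, 259 and 514 at 24 h, 3.52-fold higher (log2 change 1.81 ± 0.34, adjusted p = 0.0189). The call held in 1 of the 6 fits with 1 array left out, that without control array 3 at 24 h, with adjusted p up to 0.133 in the others. The 48 h arrays were above the 24 h arrays without overlap for 14 members, against 9.38% of all genes, and 37 of 39 changes were positive, with a median of 0.31 beside -0.04. These 3 comparisons of controls share arrays, so their values are set side by side and not counted as separate evidence.

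The effect of sarin at 24 h did not differ from that at 3 h for any member at the adjusted threshold, beside 0.836% of all genes, and 6 members had an unadjusted p under 0.05, against 12.7%. CENPF, CDCA8 and KIF20A had the smallest p, with differences of 0.64 ± 0.18 (adjusted p = 0.124), 1.59 ± 0.49 (0.144) and 0.66 ± 0.21 (0.15). The 3 genes called at 24 h are therefore not shown to respond otherwise at 24 h than at 3 h. The effect at 48 h was lower than that at 24 h for 31 members and higher for none, beside 33.2% and 30.5% of all genes, and with quantile normalization 25 of the 31 stayed called while CENPF, PTTG1 and TOP2A turned sign. Of the 31, 28 were also lower at 48 h itself. The other 3 were CENPF, KIF20A and TOP2A, with differences of -0.62 ± 0.18, -0.64 ± 0.21 and -0.50 ± 0.19. These genes were not called lower at 48 h on the probe sets used, while the second probe set of TOP2A was (-2.02). At 24 h CENPF, KIF20A and TOP2A were at 0.54, 0.6 and 0.38, against controls that were lower on average than those of 3 h and 48 h. AURKB, MKI67 and NUSAP1 were lower at 48 h without a called difference between the times.

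Over the 18 arrays the members moved together. The median Pearson r over the 741 pairs of members was 0.62, and it was 0.27 without the 48 h sarin arrays and 0.05 for deviations from the group means, so that little was shared among arrays of the same group. CCNB2 and BUB3 followed the median of the list most closely, with r of 0.97 and 0.96 over 18 arrays and 0.78 and 0.83 over the 15 without 48 h sarin. NDC80 ran against it, at -0.56, and was at 0.19 over the 15, and TTK, KIF20A and CENPF were at 0.04, 0.06 and 0.17 over the 18. These values are descriptions, since the arrays share groups, scaling and, at 48 h, the differences in RNA measures given above. No r was computed for other genes, so moving together is not shown to be particular to the members.

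The calls were also counted by promoter motif. At 48 h 37.8% of all genes were lower, and 73.6% of those in the highest signal bin. Shares of all genes with each motif were not counted. Among tested members with a CHR element 17 of 23 were lower, with a median of -1.31, and 7 of 8 without one, with a median of -1.06. With a CCAAT box 21 of 27 were lower (median -1.26), and without one 3 of 4 (median -1.27). CDC25C and CENPF, which were not called, and CDK1 and CCNB2, which were lower, all have both motifs.

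Genes of the same pathways outside the list were read from fixed lists. Their counts at 48 h stand beside the 37.8% of all genes that were lower and the 32.9% that were higher. These lists were not set beside genes of like signal, and in the highest signal bin 73.6% of all genes were lower. At 48 h 21 of 28 other G2/M regulators were lower (75.0%) and 4 higher (14.3%), with KPNA2, a nuclear import receptor, at -2.22, MELK, a kinase of dividing cells, at -1.85 and H2AZ1, a histone variant, at -1.61. TROAP, a spindle-associated protein, was at 1.86 and turned to -0.20 with spike-in scaling. Of 18 cohesin and condensin genes 11 were lower (61.1%) and 2 higher (11.1%), with SMC1A at -2.19, NCAPG2 at -2.02, PDS5B at -1.74 and SMC4 at -1.34. Of 26 other kinetochore and spindle genes 9 were lower (34.6%) and 4 higher (15.4%), a lower share no larger than that of all genes. MAD1L1, the partner of MAD2, CENPN, a kinetochore protein, and TACC3, a spindle pole protein, were at least 1.39-fold, 2.82-fold and 2.89-fold lower, and ASPM was at -2.04.

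Of 10 genes of the anaphase-promoting complex and its regulators 4 were lower (40%) and 2 higher (20%) at 48 h, where 37.8% and 32.9% of all genes were, so the lower share is near that of all genes. UBE2S, which extends ubiquitin chains for the complex, was at -2.56, ANAPC5, a subunit, at -1.34 and FBXO5, its inhibitor, at -1.15, while ANAPC2, the cullin subunit, was at 1.26 and turned to -0.76 with spike-in scaling. DNA replication genes were lower for 33 of 46 (71.7%) and higher for 2 (4.35%), with RPA3, a subunit of the single-strand binding protein, at least 15.2-fold lower, and TYMS, MCM2 and RPA1 at -2.54, -2.09 and -2.21. Their share was not set beside genes of like signal, and 73.6% of all genes in the highest signal bin were lower. Of 20 genes of G1/S and its inhibitors 8 were lower (40%) and 3 higher (15%), again a lower share near that of all genes, with MYC at least 2.52-fold lower and SKP2, CDK4 and CCNG1 at -1.39, -1.29 and -1.10.

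At 24 h each of these lists had at most 1 gene called higher and 1 lower, beside 4.11% and 4.56% of all genes, so the counts are no result about the lists. CDC25B, a phosphatase that starts CDK1 activation, was higher (0.70 ± 0.17, adjusted p = 0.0147) and CKS1B, a CDK subunit, lower (-0.44 ± 0.12, adjusted p = 0.0266). SPAG5, a spindle protein, was higher (0.52, adjusted p = 0.0468), as the 1 called gene of 26. MYC was higher (1.36, adjusted p = 0.00141), and CDK2, the kinase of S phase, lower (-0.62, adjusted p = 0.0104). RRM1, a subunit of ribonucleotide reductase, was higher (0.48, adjusted p = 0.0306) and CDT1, which licenses origins, lower (-0.77, adjusted p = 0.0385). The mean signal of MYC was 1460 in 24 h sarin cells and 567 in the 24 h controls, against 1540 in the 3 h and 1090 in the 48 h controls. That of CDC25B was 3590 in 24 h sarin cells and 2270 in the 24 h controls, against 3330 and 2900 in the others. For SPAG5 and RRM1 the 24 h controls were not the lowest controls. No gene of 10 in the anaphase-promoting complex list and none of 18 in cohesin and condensin was called.

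In untreated cells at 24 h against 3 h, KPNA2 (-0.66), TMPO, a lamina-associated protein (-0.85), and CDC25B (-0.57) were lower among the 28 other G2/M regulators and none was higher, beside 2.12% and 3.57% of all genes. Of the replication genes MCM6 (-0.53) and MCM2 (-0.46), subunits of the replicative helicase, were lower. Among the 20 G1/S genes MYC (-1.42) and CCND1, cyclin D1 (-0.47), were lower, and CDKN1C, the inhibitor p57, was higher (0.96). At 48 h against 3 h CDKN1C was higher (0.67, turning to -0.15 with spike-in scaling), and CCND1 (-0.61), MCM5 (-1.03) and MCM6 (-0.64) were lower.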

How the data were processed

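RNA of SH-SY5Y cells was hybridised to 18 Affymetrix arrays, 3 in each of 6 groups, and the deposited table holds a linear signal intensity for each of 22283 probe sets, made by the authors with MAS5 per the submitters' processing notes. No version or settings of MAS5 are stated in those notes. Precision is limited by having 3 arrays a group.

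Of the probe sets 68 are array controls, 19065 have 1 gene symbol, 1043 have several and 2107 have none, and none is named from a probe set with several. Symbols came from GEO's platform annotation and were checked through RefSeq identifiers, which matched 19059 and changed 0. The members, the other gene lists, their roles and the tests were chosen with earlier results of these data known.

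The signals were taken as log2(signal + 16) with no further scaling, which understates changes of dim genes. A gene is its probe set with 1 symbol and the highest mean, and genes in the upper 60% by mean (log2 level from 8.494, a signal of 344.7) were tested. One linear model of the 6 group means (R 4.3.3, limma 3.58.1, lmFit and eBayes with trend, 12 residual and 7.344 prior degrees of freedom) gave 8 two-sided comparisons, adjusted by Benjamini-Hochberg over the 7178 genes and called under 0.05. Probe sets were tested in the same way over 22215, without the level filter. The model was tested on simulated data with known changes.

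A signal was above background when it passed the 90th percentile of the 27 unspiked bacterial probe sets of its array. Where all 3 arrays of the dimmer group were not above it, a fold is given as "at least", the mean of the brighter group over the higher of the background and the dim signal of each array. Values on every array are given for up to 6 members a comparison with the largest called change (the 3 smallest p where none was called) and for CCNB1, CDK1, MKI67, TOP2A, AURKA, PLK1, CDC20 and FOXM1, and other members are given where their role is described. From each other list up to 4 called genes with the smallest p are named. Alternatives were other pseudocounts, filters, scalings, variance models, subsets of the arrays, each array left out in turn, and a replicate block.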

Additional observations from a re-analysis of the deposited data

Results flagged for a closer look

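The effect of sarin differed between 48 h and 24 h for 31 of the 39 members by the test of the difference itself (limma, adjusted p under 0.05), with the lower effect at 48 h in each, beside 33.2% of all genes, although CENPF, PTTG1 and TOP2A turned sign with quantile normalization. The largest differences, as sarin against control at 48 h minus sarin against control at 24 h on the log2 scale, were those of CDCA8 at -5.12 (adjusted p = 7.9e-08), FOXM1 at -2.86 (1.44e-08), TPX2 at -2.71 (1.64e-05), CENPE at -2.29 (3.2e-06), BIRC5 at -2.16 (4.8e-06) and MAD2L1 at -2.13 (1.13e-05). For CDCA8 the difference joins a higher signal in sarin cells at 24 h (1.56) and a lower one at 48 h (-3.57). CENPF, KIF20A and TOP2A are among the 31 without being called lower at 48 h itself on the probe sets used. CDCA8, FOXM1 and CENPE were above background on 0 of the 3 sarin arrays at 48 h and TPX2 on 1, so the sizes of these 4 differences and their order are not measured. MAD2L1 was only a little above background on the 3 arrays, so its size is less certain too. For BIRC5 the value is that of 1 of 3 probe sets: another was called higher for the same difference (0.84, adjusted p = 0.00499), the last was at 0.28, and with the mean of the 3 the difference was -0.35 and not called (adjusted p = 0.0734). The RNA measures of the 48 h sarin arrays move with all 31, and their part was not tested.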

How the results depend on the processing

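Members called, of 39, are given with those among their 66 probe sets after them. At 24 h (3 and 4) sarin against control gave 1 and 2 with quantile normalization, 9 members with median centring, 1 and 0 with spike-in scaling, 9 and 9 with array weights (6 members higher and 3 lower, 5 probe sets higher and 4 lower), 1 probe set without the variance trend, and 6 (all lower) and 12 (1 higher, 11 lower) against the 3 h and 48 h controls, where CDCA8 turned to -0.38. In controls at 24 h against 3 h (7 and 7) the counts were 1 and 1 with quantile normalization, 20 and 26 with median centring, 35 and 42 with spike-in scaling, 1 and 1 from only the groups compared, 2 probe sets without the trend, 9 and 11 without the 48 h sarin arrays, and 13 and 15 without those arrays and with the GAPDH ratio as covariate. At 48 h against 3 h (0 and 0) spike-in scaling gave 26 and 22 and array weights 1 member. At 48 h against 24 h (1 and 2) array weights gave 6 members, and the probe sets numbered 1 with quantile normalization, 1 from only the groups compared, and 0 with spike-in scaling or without the trend. For the effect at 24 h minus 3 h (0 and 0) median centring gave 2 members, array weights 5 and 1, and the GAPDH covariate without the 48 h sarin arrays 1, where leaving out those arrays alone gave 0. Leaving out 1 array gave 0 to 3 members and 0 to 3 probe sets at 24 h, 30 to 32 members at 48 h, 3 to 4 and 2 to 6 in controls at 24 h against 3 h, 0 to 1 member at 48 h against 3 h, 0 to 1 and 0 to 0 at 48 h against 24 h, 0 to 1 for the effect at 24 h minus 3 h, and 28 to 31 at 48 h minus 24 h. Of 454 alternative values of 22 named members, 396 kept side and call, 57 lost the call and 1 turned. Over all genes the counts called and their ranges over the alternatives were 622 (24 to 2027) at 24 h, 5075 (3454 to 7811) at 48 h, 408 (56 to 2767), 35 (3 to 3204) and 31 (5 to 307) in controls at 24 h against 3 h, 48 h against 3 h and 48 h against 24 h, and 60 (1 to 396) and 4569 (3086 to 6949) for the effect at 24 h minus 3 h and at 48 h minus 24 h. At 24 h array weights called 12.1% of all genes higher and 16.1% lower, and median centring 16% and 1.56%. In controls at 24 h against 3 h median centring called 16.1% of all genes lower and spike-in scaling 38.4%. In controls at 48 h against 3 h spike-in scaling called 44.6% lower. For controls at 48 h against 24 h array weights called 2.15% higher and 2.13% lower. The member counts shift with these shares. At 48 h the median of all genes was -0.08, against -0.23 with quantile normalization, -0.65 with median centring and -2.08 with spike-in scaling. With the replicate block 3 members were called at 24 h, 32 at 48 h and 7 in controls at 24 h against 3 h. Same-numbered sarin and control arrays of the same time correlated at -0.181 to 0.025 in their deviations, which gave no sign of pairing. Same-numbered arrays of different times were not compared in this way. The cause of these shifts was not tested. Signals near background limit the dim members.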
